A study of Mus musculus with 6 samples.

Results

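Endoderm kept for 6 passages on a mouse mesenchyme was set against the same kind of cells before any passage, over all genes of a 1-colour Illumina bead array. The comparison holds 4 of the 6 arrays of the series: 2 of passage 6 (P6) cells grown on mesenchyme 1, and 2 of unpassaged (P0) cells, chosen by their titles and not by any measured value. Both groups came from mouse embryonic stem cells of strain R1 with a Sox17-GFP construct, a fluorescent reporter for the endoderm factor Sox17. These cells received Activin A and Wnt3A for 6 days, and reporter-positive cells were collected by flow sorting. P0 cells are listed on gelatin with no passage, and P6 cells in co-culture with mesenchyme 1, whose tissue of origin the labels do not give. Both arrays of each group are technical repeats in the series, so a group stands for 1 preparation hybridised 2 times. P-values therefore measure the spread between arrays and not between cultures.

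Definitive endoderm is the germ layer of the gut tube and its glands. In culture it is obtained from pluripotent cells through Nodal-type signalling, which Activin A supplies, together with Wnt. The same starting cells can also give extraembryonic endoderm, trophoblast-like cells or cells of the primed epiblast, the stage just before gastrulation, and each of these has its own transcription factors and keratins. Mesenchyme supplies secreted and matrix signals to the epithelium that it borders in the embryo.

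The deposited normalized intensities were compared on the log2 scale after the brightest probe was taken for each gene, which gave 8396 features (genes and unnamed probes). A feature was called when its limma adjusted p was under 0.05 and its change at least 2-fold. On mesenchyme 1, 220 features were higher and 240 lower than in P0, which is 2.62% and 2.86% of those tested and 5.48% in all. Intensities of the 460 called features did not overlap between the groups, which was so for 76.0% of all features. Differences below are log2 values, mesenchyme 1 minus P0, ± the standard error of the fit, and n = 2 arrays per group throughout. Calls were unevenly spread over the range of brightness: with features cut into 4 equal groups by mean intensity, 226 lay in the dimmest group (9.80 to 55.7), where duplicates differed most, and 39 in the brightest. With 50 added to every intensity, 47 of the higher and 47 of the lower calls were still at least 2-fold. Differences of genes at these low intensities are the ones that shrink most when a constant is added.

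**Figure D1:**
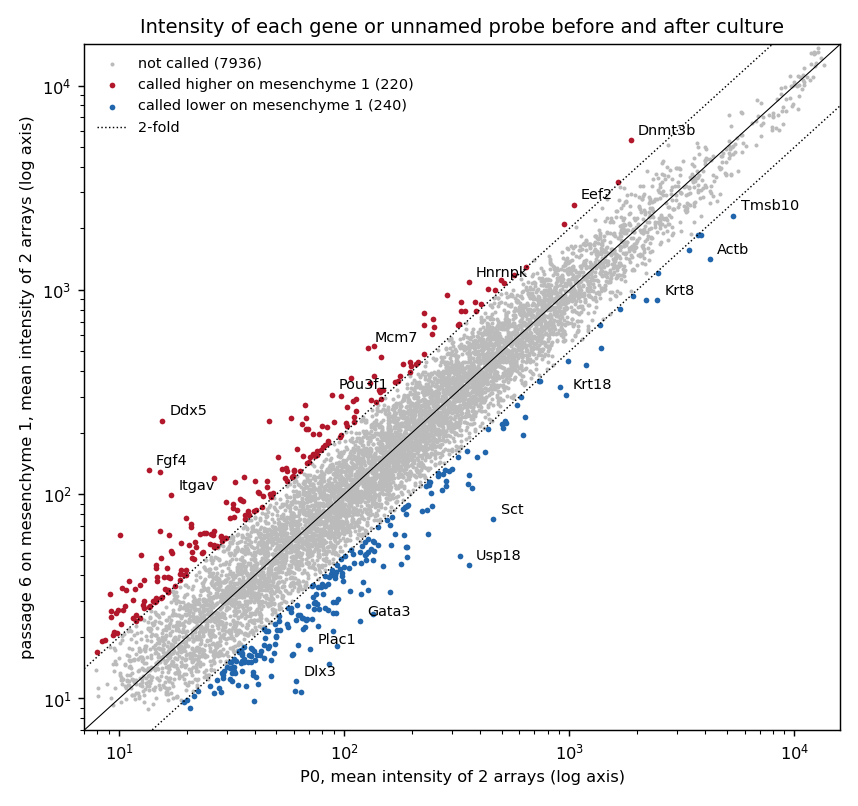
Geometric mean intensity of 8396 genes and unnamed probes on the 2 P0 arrays (x, log axis) and the 2 arrays of passage 6 on mesenchyme 1 (y, log axis), with the line of equality and dotted lines at 2-fold. The 220 features called higher (red) and 240 called lower (blue) are densest at low intensity, while Dnmt3b, Eef2, Actb and Tmsb10 stand apart among the bright ones.

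Markers of the labelled cell type were checked first. Of 10 definitive endoderm markers, 5 had a named probe (Sox17, Foxa1, Gata4, Gata6 and Hhex). Their summed intensity was 420.0 and 444 on the P0 arrays and 513 and 550 on the mesenchyme 1 arrays. Gata6 (130 and 161 to 309 and 322) alone made the sum higher, since Sox17, Foxa1, Gata4 and Hhex differed by -0.24, -1.32, -0.14 and -0.15. Foxa2, Cxcr4, Epcam, Cer1 and Gsc were not analysed here. Sox17 itself stood at 103 and 90.6 in P0 and at 83.2 and 80.5 on mesenchyme 1. Its difference of -0.24 ± 0.0994 did not pass (limma adjusted p = 0.0868). Foxa1, a pioneer factor of gut endoderm, fell by 1.32 ± 0.11 (79.2 and 68.3 to 28.4 and 30.6). All 5 pluripotency markers were measured, with sums of 9830 and 10510 in P0 and of 8588 and 8595 on mesenchyme 1, and none was called. Of 10 fibroblast or mesenchyme markers 3 were measured (Pdgfra, Thy1 and Twist1), with sums of 130 and 144 in P0 and of 203 and 166 on mesenchyme 1. Pdgfra (1.06) alone made that sum higher, as Thy1 and Twist1 differed by -0.81 and -0.75. Of 4 endothelial markers 2 were measured, at 292 to 321 on the 4 arrays, and of 5 blood markers none. The part of carried-over mesenchyme cells in the differences below was not tested.

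**Figure D2:**
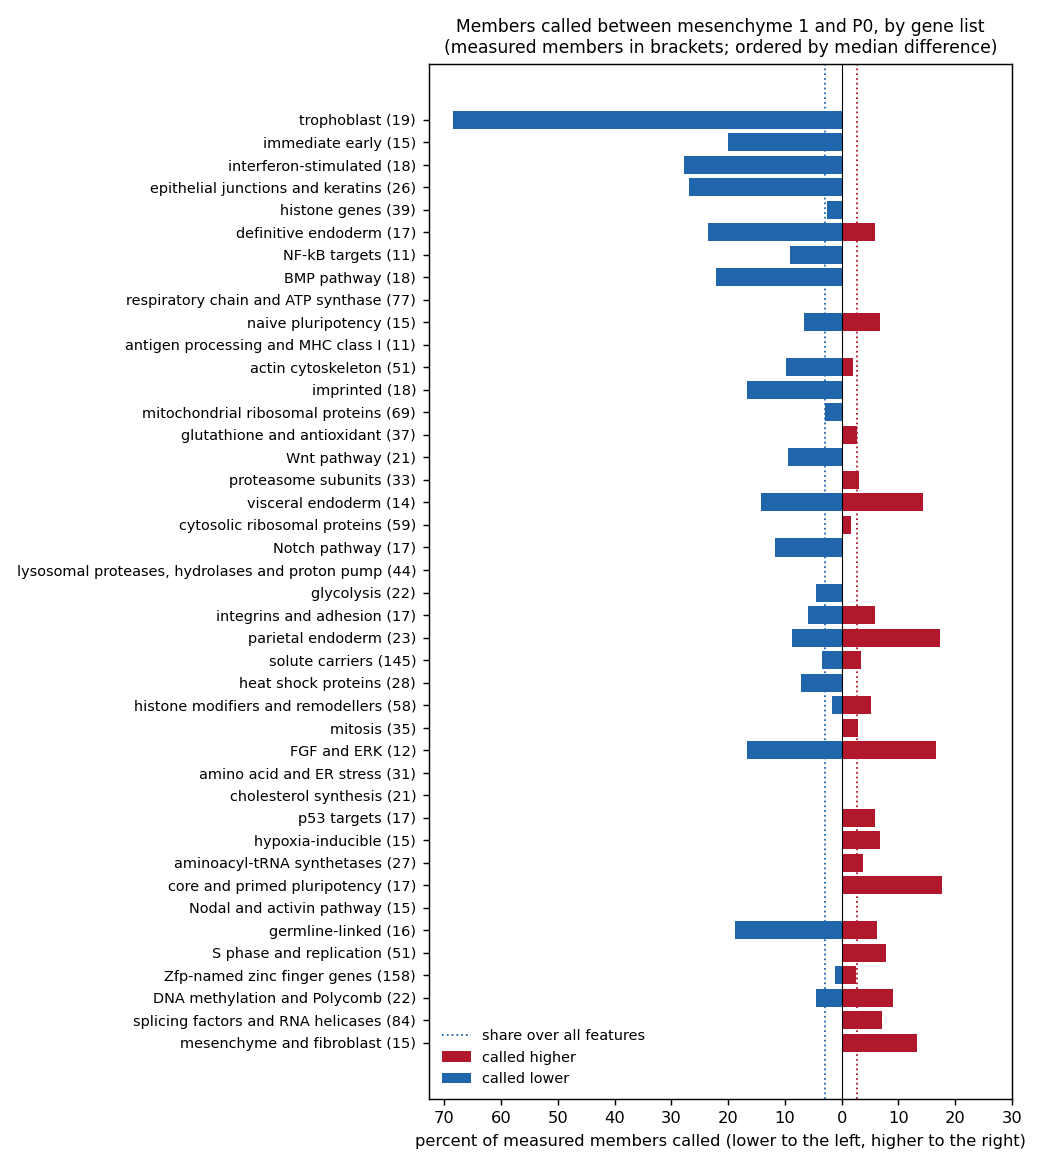
Share of the measured members of each gene list that were called lower (blue bars, to the left) or higher (red bars, to the right) on mesenchyme 1 than in P0, for lists with at least 10 measured members. Dotted lines mark the share over all features, 2.86% lower and 2.62% higher. The trophoblast list, with 13 of 19 members lower, reaches farthest from them.

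Genes associated with trophoblast, the lineage that forms the outer layer of the embryo and the placenta, were lower on mesenchyme 1. Of 30 listed genes 19 were measured. Of 7 trophoblast markers 4 were measured, and Cdx2, Elf5 and Hand1 were not analysed here. Of the 19 measured members 13 fell and 0 rose, against 2.86% of all features called lower. The list's median difference was -1.32 against -0.02 over all features. With 50 added to every intensity 7 of the 13 were still called. In bulk samples, fewer cells of a type and less RNA per cell cannot be told apart. The falls began with transcription factors. Gata3, which directs trophoblast fate, stood at 108 and 128 in P0 and at 16.9 and 33.8 on mesenchyme 1 (-2.30 ± 0.301, limma adjusted p = 0.00162). Gata2, its partner in trophoblast, stood at 93.2 and 78.8 in P0 and at 12.9 and 16.8 on mesenchyme 1 (-2.54 ± 0.203). Both P0 arrays lay well above both mesenchyme 1 arrays for each gene. Dlx3, a homeobox factor of the placenta, went from 63.7 and 58.9 to 15.5 and 9.45, and the dim Tfap2a from 44.0 and 41.1 to 19.4 and 14.9. The related Tfap2c, bright at 1113 and 1071 in P0, stood at 652 and 682 on mesenchyme 1, a difference of -0.71 ± 0.0869 that passed the p limit but not the 2-fold limit.

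The trophoblast falls included structural, secreted and X-linked genes as well as factors. Krt7, a keratin of trophoblast and simple epithelia, stood at 168 and 190 in P0 and at 52.0 and 39.6 on mesenchyme 1 (-1.98 ± 0.144). Plac1, an X-linked placental gene, fell by 2.01 ± 0.187, from 67.3 and 73.8 to 17.5 and 17.4. The imprinted Phlda2, which restrains placental growth, was the best measured of these. It stood at 370 and 343 in P0 and at 111 and 115 on mesenchyme 1 (-1.66 ± 0.0882, limma adjusted p = 0.000153). Among the dim members, Wnt7b, a Wnt ligand, went from 65.2 and 61.7 to 24.8 and 26.3, the FGF receptor gene Fgfr2 from 30.9 and 32.4 to 11.8 and 12.6, and Peg10, a retrotransposon-derived placental gene, from 61.9 and 63.3 to 28.9 and 22.9. Lgals3, the galectin-3 gene, fell by 1.04 ± 0.0905 from 1936 and 1896 to 909 and 953. Of the members that were not called, Ets2, Tead4 and Rhox5 differed by 0.06, -0.04 and -0.15, Cited1 by -0.68 and Mmp9 by 0.88.

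The reproductive homeobox (Rhox) cluster on the X chromosome was split. Rhox6 fell by 2.37 ± 0.118, from 88.1 and 98.7 to 18.1 on each mesenchyme 1 array, and Rhox9 by 1.78 ± 0.103, from 192 and 188 to 53.3 and 57.7. Rhox5, at 964 and 962 in P0, stood at 884 and 854 on mesenchyme 1 (-0.15 ± 0.0869, limma adjusted p = 0.197). On the arrays of passage 6 on mesenchyme 2, the other co-culture of the series, Rhox6 stood at 78.3, and mesenchyme 1 minus mesenchyme 2 was -2.11 in the same fit (limma adjusted p = 1.07e-05). Gata3, Gata2 and Krt7 also stood lower on mesenchyme 1 than on mesenchyme 2, by -1.26, -1.32 and -1.38 (limma adjusted p = 0.00813, 0.00101 and 0.000153). The summed intensity of these genes and Tfap2c went the other way, 734 and 773 on mesenchyme 1 against 649 and 669 on mesenchyme 2. Plac1 differed by -0.10 between the co-cultures (limma adjusted p = 0.653).

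**Figure D3:**
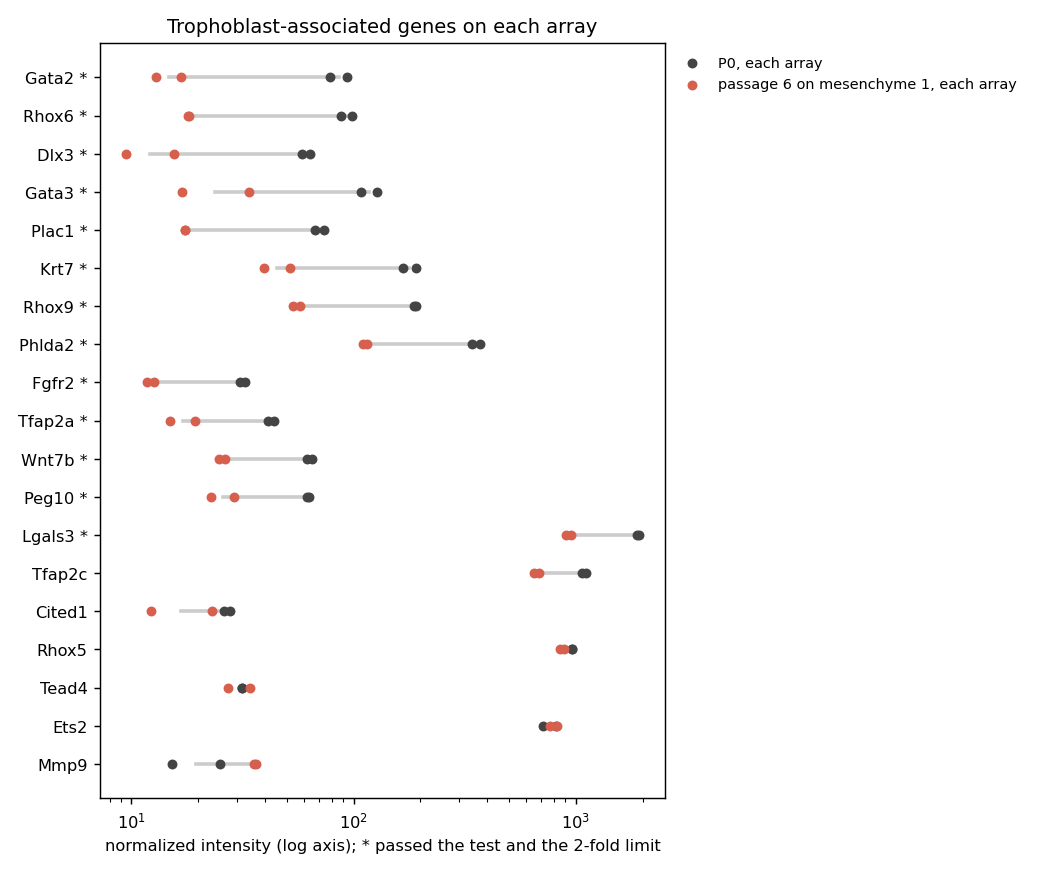
Normalized intensity (log axis) of the 19 measured trophoblast-associated genes on each P0 array (dark points) and each array of passage 6 on mesenchyme 1 (red points), with a grey bar between the group means. The 13 starred genes passed the limma test and the 2-fold limit, all of them with the mesenchyme 1 points to the left, while Rhox5, Tead4 and Ets2 lie close together.

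Keratins and some junction genes were lower, while 2 regulators of epithelial identity stood higher without reaching 2-fold. Of 26 measured members of the list, 7 fell and 0 rose, against 2.86% of all features called lower. The list's median was -0.52 against -0.02 over all features. The 7 include Krt7, which the trophoblast list also holds. Krt8 and Krt18, which pair to form the filaments of simple epithelia, went from 2493 and 2414 to 889 and 890 and from 936 and 995 to 292 and 324. Krt19 fell by 1.43 ± 0.0989. Gjb2, which encodes a gap junction protein, fell by 1.87 ± 0.0941 (122 and 116 to 34.4 and 30.8), and its second probe by 1.70. Tjp3 and Cldn3, genes of the tight junction, fell by 1.30 ± 0.119 and 1.68 ± 0.122, Cldn3 from only 34.3 and 39.5 to 10.5 and 12.6. Grhl2, a transcription factor of epithelia, stood at 138 and 142 in P0 and at 281 and 249 on mesenchyme 1 (0.92 ± 0.1). Esrp1, an epithelial splicing regulator, stood at 447 and 452 in P0 and at 883 and 800.3 on mesenchyme 1 (0.90 ± 0.0977). Both passed the p limit alone (limma adjusted p = 0.000949 and 0.000916). Cdh1, the gene of the epithelial cadherin, differed by 0.27.

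A few genes of the primed epiblast rose, while most pluripotency genes stayed within 2-fold. Of 17 measured core and primed pluripotency genes 3 rose and 0 fell, against 2.62% of all features called higher, and the list's median was 0.20. Dnmt3b, the de novo DNA methyltransferase of the epiblast, was the brightest of all genes that rose. It stood at 1918 and 1823 in P0 and at 5407 and 5394 on mesenchyme 1 (1.53 ± 0.0846, limma adjusted p = 0.000162), and its dimmer probe differed by 1.81. Pou3f1, a POU factor of the primed state, stood at 96.0 and 80.5 in P0 and at 307 and 306 on mesenchyme 1 (1.80 ± 0.14). Fgf15 stood at 124 and 103 in P0 and at 295 and 289 on mesenchyme 1 (1.37 ± 0.222). In each of these 3 genes the arrays of the groups lay far apart. The anterior epiblast factor Otx2 and the ligand gene Nodal differed by 0.48 ± 0.127 and 0.30 ± 0.085, within 2-fold.

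The same 3 genes were lowest on mesenchyme 2. Levels there were 714 for Dnmt3b, 17.3 for Pou3f1 and 11.2 for Fgf15, and mesenchyme 1 exceeded mesenchyme 2 by 2.92, 4.15 and 4.71 (limma adjusted p = 1.47e-06, 2.07e-06 and 5.69e-06). Among 15 naive pluripotency genes, those of the earlier epiblast, Fgf4 rose and Klf4 fell, 13.3% against 5.48% of all features. The list's median was -0.33 (-0.20 without P0 replicate 2, -0.47 without P0 replicate 1). Fgf4, a growth factor of the epiblast, stood at 11.1 and 16.5 in P0 and at 152 and 114 on mesenchyme 1, a difference of 3.28 ± 0.213 that was 1.51 with 50 added. Klf4 stood at 373 and 404 in P0 and at 151 and 155 on mesenchyme 1 (-1.35 ± 0.0969), and its other probes differed by -2.77 and -2.68. Klf2, Tcl1 and Jam2 differed by -0.94, -0.85 and -0.83 and stayed within 2-fold. Dppa5a, the brightest gene of the pluripotency lists, differed by 0.01 ± 0.0966. Among 22 DNA methylation and Polycomb genes 2 rose and 1 fell, 13.6% against 5.48% of all features. Dnmt3b and Ezh2, the Polycomb methyltransferase, rose (1.53 and 1.25). Phf19, a Polycomb accessory protein, fell by 1.07 ± 0.145, a call lost without P0 replicate 1 (-0.91) or mesenchyme 1 replicate 2 (-0.91). A second, dimmer probe of Ezh2 differed by 0.33.

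Extraembryonic endoderm genes moved in both directions. These cells, which line the yolk sac, share many genes with definitive endoderm. Of 23 parietal endoderm genes 4 rose and 2 fell, against 2.62% of all features called higher and 2.86% called lower. Gata6, a shared endoderm factor, stood at 130 and 161 in P0 and at 309 and 322 on mesenchyme 1 (1.13 ± 0.118), and without P0 replicate 1 it stood at 0.97 and lost its call. Lama1, a laminin chain, rose by 1.23 ± 0.131 (401 and 469 to 1115 and 925), and Srgn, a secretory granule proteoglycan, by 1.27 ± 0.0954. The matrix genes Sparc and Nid1 went the other way, Sparc on its brightest probe from 1666 and 1709 to 860 and 756 (-1.07 ± 0.0975) and Nid1 by -1.07 ± 0.126. The second probe of Sparc showed no such fall, at 923 and 811 in P0 and 843 and 874 on mesenchyme 1 (-0.01). With the mean of all probes, 1 of these 2 parietal falls was still called. Sparc was not called without mesenchyme 1 replicate 2 (-0.97), nor Nid1 without mesenchyme 1 replicate 1 (-0.96) or, narrowly, without P0 replicate 1. The collagen gene Col4a1 and the factor Sox7 differed by 0.34 and 0.63 and were not called. Of 14 visceral endoderm genes, Amn, a part of the protein uptake receptor, rose from 35.6 and 35.9 to 113 and 130 (1.76 ± 0.0975), and Afp, the fetal serum protein, rose from 21.7 and 30.5 to 64.0 and 64.4. In the same list Rbp4 and Car4, a carbonic anhydrase, fell, Car4 by 1.02 ± 0.089 with its call lost once the gene span trend was removed or P0 replicate 1 was left out (-0.97). The carrier gene Ttr differed by -0.79 and the adaptor gene Dab2 by 0.02. All 6 called parietal genes stood higher on mesenchyme 2 than on mesenchyme 1, at 5115 for Lama1, 6608 for Sparc and 1528 for Gata6. The definitive endoderm list of 17 measured genes had 1 rise, Gata6, and 4 falls, Foxa1 and the keratins Krt8, Krt18 and Krt19 described above.

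In the BMP, Wnt, Notch and immediate early lists the calls were falls, against 2.86% of all features called lower. Of 18 BMP pathway genes 4 fell and 0 rose: the target Id2 (-1.03 ± 0.137), the secreted BMP antagonist Nbl1 (-2.57 ± 0.184, from 61.3 and 66.8 to 12.8 and 9.06), and Gata2 and Gata3, which the trophoblast list also holds. With 50 added Nbl1 stood at -0.90 and was not called. Id2 lost its call without P0 replicate 2 (-0.99) or mesenchyme 1 replicate 2 (-0.83), and its second probe differed by -0.60. The targets Id1 and Id3 differed by -0.89 and -0.48 and were not called. Of 15 immediate early genes, which respond within minutes to growth factors and to handling, Junb, Fosb and Zfp36 fell, with differences of -1.53 ± 0.0935, -1.32 ± 0.109 and -1.30 ± 0.108, and the median was -0.81. That median was -0.50 with the gene span trend removed, when Zfp36 lost its call (-0.96), and -0.37 with 50 added, when none of the 3 was called. Fosb was dim in P0, at 40.3 and 34.9, while Junb, at 171 and 154, lay above the P0 array medians of 128 and 130. Of 21 Wnt pathway genes Wnt7b and the target Sp5 fell, Sp5 from 116 and 135 to 51.9 and 49.8 with its call lost once the gene span trend was removed (-0.97), while the feedback gene Axin2 differed by 0.01. Of 17 Notch genes the ligand gene Jag2 and Psen2, a subunit of gamma-secretase, fell by 1.11 ± 0.0961 and 1.34 ± 0.13. Itgav, the integrin alpha-V chain, rose by 2.53 ± 0.129 (15.7 and 18.4 to 109 and 89.3), and Wt1, a factor of mesothelium and kidney, by 2.03 ± 0.101 (65.0 and 68.8 to 263 and 285).

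Messages of platelet-derived growth factors, which signal to mesenchymal cells, were lower. Pdgfa stood at 1166 and 1196 in P0 and at 435 and 420 on mesenchyme 1 (-1.47 ± 0.0834, limma adjusted p = 0.000175). Pdgfb stood at 119 and 136 in P0 and at 35.9 and 32.1 on mesenchyme 1 (-1.91 ± 0.109). The receptor gene Pdgfra moved the opposite way, from 67.7 and 69.4 to 152 and 134 (1.06 ± 0.0987), and it stood at 920 on mesenchyme 2. Of 15 measured mesenchyme and fibroblast genes, 2 rose, Pdgfra and the collagen gene Col5a1 (1.02 ± 0.0872), and 0 fell. Over all features 2.62% were called higher. Without mesenchyme 1 replicate 1 neither of these 2 genes was called (0.97 and 0.98), nor was Col5a1 without P0 replicate 2 (0.98). Secreted and signalling genes with large rises were Ptn, encoding the growth factor pleiotrophin (53.6 and 62.7 to 245 and 226), and Plcg2, a phospholipase (239 and 257 to 729 and 717). Of the falls, Socs3, an inhibitor of cytokine signalling, changed by -1.52 ± 0.0967, Gnai2, a G protein subunit, by -1.42 ± 0.085 and Wfdc2, a secreted epithelial protein, by -1.45 ± 0.0851. Among 12 measured FGF and ERK genes, Fgf4 and Fgf15 rose and Fgfr2 and Fgf10 fell, 33.3% against 5.48% of all features. With 16 added to every intensity neither of these falls was called. Fgf10 also lost its call without P0 replicate 2 (-0.94) or mesenchyme 1 replicate 1 (-0.83), and its second probe differed by -0.87. The feedback genes Dusp6, Spry4 and Etv5 differed by 0.52, -0.16 and 0.08 and were not called.

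Some splicing factors and RNA helicases rose. Of 84 measured splicing factors and RNA helicases 6 rose and 0 fell, a share of 7.14% against 2.62% of all features called higher, and the list's median was 0.31. Ddx5, a DEAD-box helicase, stood at 16.9 and 14.3 in P0 and at 239 and 220.0 on mesenchyme 1. Its difference of 3.88 ± 0.116 rests on dim P0 values and was 2.09 with 50 added. Hnrnpk and Hnrnpa2b1, which bind pre-mRNA, stood at 358 and 357 and at 282 and 289 in P0, and at 1058 and 1120 and at 986 and 900.1 on mesenchyme 1. Celf1, a splicing and stability factor, rose by 1.43 ± 0.0935 and Ddx3x by 1.16 ± 0.114. Rbm10, also dim at 16.8 and 25.9 in P0, rose by 1.78 ± 0.219, or 0.77 with 50 added, where it was not called. Outside that list, the initiation factor Eif4g2 rose by 1.76 ± 0.0864 (230.1 and 225 to 742 and 793) and the elongation factor Eef2 by 1.32 ± 0.105 (1100 and 994 to 2494 and 2747). Of 59 cytosolic ribosomal protein genes only Rps15a was called (1.08), and the list's median was -0.14, which turned to 0.14 once the gene span trend described below was removed.

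Other probes of these genes did not always move with the brightest. For Eef2 the 3 probes differed by 1.32, 1.52 and 1.26, and for Celf1 by 1.43, 1.28 and 1.44. For Hnrnpk, Hnrnpa2b1, Eif4g2 and Rbm10, the dimmer probe differed by 0.31, 0.40, 0.57 and 0.35, each under 2-fold. With the mean of all its probes Hnrnpk stood at 0.96 and lost its call. Over the 75 called genes with a next probe, 72 of the next probes differed in the same direction and 34 by at least 2-fold. Across all 2007 genes with several probes the log2 differences of the brightest and the next probe correlated at 0.62, a description over genes, which share the same arrays.

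**Figure D4:**
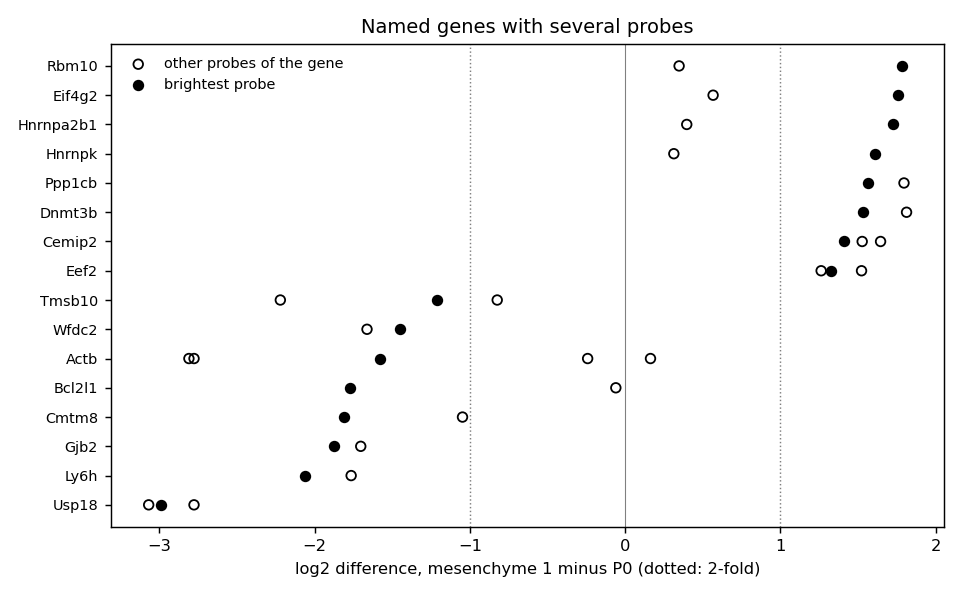
Log2 difference of each probe (mesenchyme 1 minus P0) for genes with several probes. Shown are those among the 25 largest rises and falls, or the 20 largest with 50 added, and not genes named only as list members. Filled points are the brightest probe, open points the others, and dotted lines mark 2-fold. Probes of Usp18, Eef2, Cemip2 and Gjb2 lie close together, whereas those of Actb reach from -2.81 to 0.16 and the second probes of Hnrnpk, Hnrnpa2b1, Eif4g2 and Rbm10 lie inside the 2-fold lines.

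The probes of Actb disagreed widely. On the brightest probe of this gene, which encodes beta-actin, intensities were 4215 and 4220 in P0 and 1419 and 1401 on mesenchyme 1 (-1.58 ± 0.0823). Its other 4 probes differed by -0.24, 0.16, -2.81 and -2.78, so the direction for this gene depended on the probe. Actg2, smooth muscle gamma-actin, rose by 1.68 ± 0.118 (150 and 141 to 450.0 and 485); actin genes have close paralogs, and the source of a probe's signal among them is uncertain. Of 51 measured actin cytoskeleton genes, 5 fell and 1 rose, with a median of -0.29. Over all features 2.86% were called lower and 2.62% higher. Tmsb10, which binds actin monomers, went from 5465 and 5237 to 2207 and 2418 (-1.21 ± 0.0906), and its other probes differed by -0.82 and -2.22. The annexins Anxa1 and Anxa2 were also lower, with differences of -1.32 ± 0.0991 and -1.05 ± 0.15, as was S100a6, a calcium-binding protein (-1.37 ± 0.134). Anxa2 lost its call without P0 replicate 1 (-0.95).

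Of 51 measured S phase and replication genes 4 rose and 0 fell (7.84% against 2.62% of all features called higher). The list's median was 0.24, and 17 members lay below 0. With 50 added 2 of the 4 were still called. Mcm7, a subunit of the replicative helicase, stood at 123 and 131 in P0 and at 564 and 483 on mesenchyme 1 (2.04 ± 0.15). The remaining measured helicase subunits Mcm2, Mcm3, Mcm4, Mcm5 and Mcm6 differed by 0.37, 0.30, 0.37, 0.53 and 0.45, so Mcm7 stood apart from its own complex on this array. Atad2, a chromatin ATPase of S phase, rose by 2.29 ± 0.102 (44.3 and 48.7 to 231 and 224). Ctps2, a nucleotide synthesis enzyme, rose by 1.94 ± 0.103 from 19.5 and 20.3 to 75.4 and 76.9, and the cyclin gene Ccne2 by 1.14 ± 0.141, though not past the limit without mesenchyme 1 replicate 1 (0.93). Of 35 mitosis genes Plk4, which starts centriole duplication, was the single call (1.06), and the median was 0.09.

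Interferon-stimulated genes were mostly lower. Of 18 measured members 5 fell and 0 rose, against 2.86% of all features called lower, and the median was -0.53. Below 0 lay 14 members, against 4352 of all 8396 features. On the p limit alone 13 were lower, against 2036 of the 8396. Usp18, an ISG15-removing protease, stood at 339 and 377 in P0 and at 46.3 and 43.9 on mesenchyme 1, and its 3 probes differed by -2.99, -3.07 and -2.78. Isg15 stood at 144 and 127 in P0 and at 27.1 and 24.5 on mesenchyme 1 (-2.39 ± 0.121). Lgals3bp and Ifi27 fell by 1.57 ± 0.127 and 1.19 ± 0.0832, and with 50 added only Usp18 and Isg15 of the 5 were called. Bst2, which tethers enveloped viruses, stood at 119 and 201 in P0 and at 65.4 and 85.4 on mesenchyme 1 (-1.05 ± 0.293), and it lost its call without P0 replicate 2 (-0.67) or mesenchyme 1 replicate 1 (-0.85). Irf1, an interferon-regulated factor, stood at 939 and 1042 in P0 and at 1338 and 1388 on mesenchyme 1 (0.46 ± 0.0982). Oasl2, Ifitm3 and Stat2 differed by -0.48, -0.58 and -0.61 and were not called. None of 11 measured antigen processing and MHC class I genes was called (limma). Their median was -0.33, or -0.06 with the gene span trend removed. On the p limit alone 5 of them passed, against 4044 of all 8396 features.

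The interferon response element, through which the factors downstream of the interferon receptor bind DNA, was searched as GAAA, any 2 bases and GAAA again, on both strands and counting overlapping matches, in windows from 250 bases before to 50 bases after each RefSeq start site. It was present for 8 of the 15 interferon-stimulated genes with a window (53.3%) and for 225 of 6378 measured genes (3.53%). A match is a description of letters and not a measured site. Of the 3 genes with a window that fell, Isg15 and Bst2 held it, as did 6 of the 12 with a window that were not called, among them Stat2 and Ifitm3. The 250 bases before the start sites of Isg15 and Bst2 are shown from RefSeq (GRCm38.p6) because they place the letters of the element beside the falls given above; capitals mark the matches, which overlap each other. The Isg15 sequence is chr4:156200819-156201068 on the minus strand, with matches from 78 bases before the start, and the Bst2 sequence is chr8:71537473-71537722 on the minus strand, with matches from 130 bases before it.
Isg15: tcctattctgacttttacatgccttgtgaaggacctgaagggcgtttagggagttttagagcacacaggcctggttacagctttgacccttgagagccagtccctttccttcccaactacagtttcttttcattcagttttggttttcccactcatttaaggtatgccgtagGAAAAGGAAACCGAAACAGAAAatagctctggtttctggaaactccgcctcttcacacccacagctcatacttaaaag
Bst2: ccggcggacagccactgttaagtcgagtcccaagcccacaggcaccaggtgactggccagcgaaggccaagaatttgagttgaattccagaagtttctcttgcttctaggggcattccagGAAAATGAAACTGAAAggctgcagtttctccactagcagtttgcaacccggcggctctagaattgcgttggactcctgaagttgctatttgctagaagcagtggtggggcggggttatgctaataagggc

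Hormone, carrier and stress genes completed the larger changes. Sct, which encodes secretin, stood at 442 and 478 in P0 and at 84.6 and 66.8 on mesenchyme 1 (-2.61 ± 0.127). Rbp4, the plasma retinol carrier, went from 375 and 364 to 112 and 102, and stood at 1595 on mesenchyme 2. Spink1, a trypsin inhibitor of the pancreas and gut, fell by 1.29 ± 0.11 from 2221 and 2152 to 879 and 907. Hspb8 and Cryab, small heat shock proteins, fell by 2.27 ± 0.0906 and 1.54 ± 0.103. They were the 2 of 28 measured heat shock genes called, 7.14% against 5.48% of all features, and the list's median was -0.01. Of the imprinted list, 3 of 18 members fell (Phlda2, Peg10 and Slc22a18) and 0 rose, against 2.86% of all features called lower. Cdkn1c, a brake on the cell cycle, differed by -0.92 ± 0.0871 within 2-fold. Among 16 germline-linked genes, Khdc3, an egg and early embryo gene, fell by 1.94 ± 0.136 beside Rhox6 and Rhox9, and Ddx4, a germ cell helicase, rose (1.00) to 32.1 and 34.1; without P0 replicate 1 or mesenchyme 1 replicate 2 it was not called (0.96). Slc38a2, an amino acid transporter, rose by 1.14 ± 0.0945 from 979 and 921 to 2193 and 2002, while its second probe differed by 0.49. The solute carriers as a whole had 5 higher and 5 lower of 145, a share of 6.90% against 5.48% of all features. Hk1, a hexokinase, fell by 1.76 ± 0.129 (94.3 and 84.3 to 24.0 and 28.9) and was the single call among 22 glycolysis genes.

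Several large housekeeping groups had medians away from 0 with few calls at 2-fold. Of 77 respiratory chain and ATP synthase genes none was called at 2-fold by limma, and the list's median was -0.39. On the p limit alone 55 of the 77 passed, against 4044 of all 8396 features. Of 39 histone genes 38 lay below 0, with H1f10 the single call and a median of -0.50; many histone genes are near-identical copies, so a probe's signal cannot be assigned to 1 of them with certainty. Of 69 mitochondrial ribosomal protein genes Mrps6 (-1.10) and the dim Mrpl51 (-1.01) fell, 2.90% against 2.86% of all features called lower. The list's median was -0.25. Mrpl51 lost its call in each fit that left out 1 array. Of 158 Zfp-named zinc finger genes 4 rose and 2 fell, with a median of 0.28. The share called in this list was below the 5.48% of all features. The rises were Zfp457 (2.02), Zfp24 (1.66), Zfp148 (1.45) and Zfp281 (1.10), and none of the 4 was at 2-fold with 50 added. None of 21 cholesterol synthesis genes or 31 amino acid and endoplasmic reticulum stress genes was called by limma at 2-fold. Nor was any of 44 lysosomal genes or 15 Nodal and activin pathway genes. On the p limit alone 12, 14, 18 and 9 of them passed, against 4044 of all 8396 features.

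The direction of change tended to follow the size of the gene on the chromosome, with calls of both directions at every size. Over 7771 genes with a RefSeq span, log2 span and the log2 difference correlated at 0.319 (Spearman 0.353), a description over genes that share the same 4 arrays. The same measure was -0.03 between the P0 duplicates and -0.02 between the mesenchyme 1 duplicates. For mesenchyme 2 minus P0 it was 0.06. With the genes cut into 5 equal groups by span, the shortest group (up to 7.53 kb) had a median difference of -0.28, with 4.63% called lower and 0.965% called higher. In the longest group (from 57.5 kb) the median was 0.20, with 1.93% called lower and 5.28% higher. Genes called higher had a median span of 42.4 kb and those called lower of 14.2 kb, against 21.3 kb in all. Transcript lengths and RNA quality measures were not used here.

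Gene lists differed in span, and their values with the span trend removed from each array are therefore given. This alternative was chosen after the data were seen. The histone genes have a median span of 0.492 kb, and their median difference moved from -0.50 to -0.03. The respiratory chain list (7.28 kb) moved from -0.39 to -0.22, the mitochondrial ribosomal list (7.75 kb) from -0.25 to -0.08, the actin list (17.2 kb) from -0.29 to -0.11 with 3 in place of 5 members lower, and the interferon list (12.3 kb) from -0.53 to -0.41 with 3 in place of 5. The trophoblast list (15.4 kb) had a median of -1.35 and 12 members lower, Lgals3 being lost at -0.95. The keratin and junction list kept its 7 falls in number, the splicing list its 6 rises and the primed pluripotency list its 3 rises. The 2 rises of the mesenchyme and fibroblast list, Pdgfra and Col5a1, were not called at 0.90 and 0.84. The part of RNA quality or amplification in the trend was not tested.

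**Figure D5:**
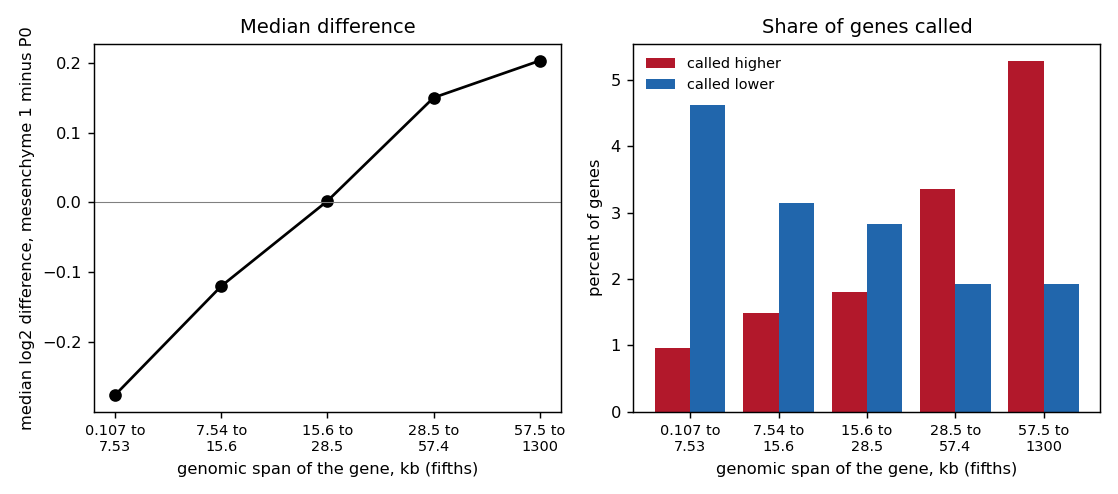
Median log2 difference between mesenchyme 1 and P0 (left) and percent of genes called higher (red) or lower (blue) (right) in 5 equal groups of the 7771 genes with a RefSeq span, from the shortest to the longest span in kb. The median rises from -0.28 to 0.20 across the groups, and the share called higher exceeds the share called lower in the groups from 28.5 kb.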

How the data were processed

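RNA of 6 samples was amplified, biotin-labelled and hybridised to Illumina mouse arrays, per the labels' protocols. The authors deposited normalized intensity values on a linear scale, used here as the main data. The submitters' processing notes name BeadStudio without a version. No label or header states the background correction, the normalization method or the probe filter. A scanner table has 12 columns of signal and detection values whose names match no sample label, so they were not used and detection is unknown. The planned test was therefore run on the deposited normalized values.

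Probes were named from the platform annotation (10475 of 11097 with 1 symbol, 0 with several, 622 with none), with RefSeq names of GRCm38.p6 for 10471. Log2 intensities of all 6 arrays, 1 mean per group, were fitted with limma 3.58.1 in R 4.3.3, with 3 residual and 3.81 prior degrees of freedom, and two-sided p-values adjusted by Benjamini-Hochberg over 8396 features (7774 named genes). The small number of arrays limits precision. The fit was tested on simulated data.

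Genes were named by rule: the 25 largest rises and falls, the 20 largest with 50 added, and members of gene lists. Members and lists were chosen with earlier results of these data known. Lists are described by counts and medians, with no set test. Alternatives were 16 or 50 added, a mean intensity of at least 50, median centring, quantile normalization, all probes averaged, other size limits, 4 arrays alone, a replicate block, single arrays left out, and a gene span trend removed.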

Additional observations from a re-analysis of the deposited data

How the results depend on the processing

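The 460 calls between mesenchyme 1 and P0 became 209 with 16 added, 94 with 50 added, 283 among features whose mean intensity reached 50, 56 in a test of changes over 2-fold and 4044 on the p limit alone. Leaving out single arrays gave 490 to 501 calls. The 13 lower trophoblast genes became 7 with 50 added, 8 among the brighter features and 6 in the test of changes over 2-fold, and 13 to 14 without single arrays. The 6 higher splicing and helicase genes became 43 on the p limit alone, 3 in the test of changes over 2-fold, and 6 to 7 without single arrays. Of 138 named calls, 43 were lost with 16 added, 76 with 50 added, 94 in the test of changes over 2-fold, 19 with the span trend removed, 9 with all probes averaged and 6 to 11 without single arrays; none reversed under these alternatives. The fit with replicate number as a block gave 460 calls. Same-numbered deviations of P0 and mesenchyme 1 correlated at -0.003, so no shift shared by replicate number was seen. That value cannot tell whether same-numbered arrays shared a batch. Slide and scanner background could not be run, as no file pairs them with samples.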
